A study of Oryza sativa with 216 samples.

Results

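WRKY transcription factor genes were read in rice flag leaves at heading, in 210 recombinant inbred lines (RILs) and in their parents Minghui 63 and Zhenshan 97. All plants were untreated field-grown indica rice, and the RILs came from single-seed descent of the cross between both parents. The RNA of each RIL was hybridised to 1 Affymetrix rice array after RNA of separate plantings had been mixed, whereas each parent had 3 arrays, 1 for each biological replicate. A line therefore has no replicate spread, and a difference between RILs and parents cannot be told apart from this difference in handling. Expression is given in log2 units as RMA summarised it, where a difference of 1 is a doubling. Genes were taken where the symbol of the probe-gene table starts with WRKY or OsWRKY. Of 17905 genes with 1 symbol in that table, this wording found 1, WRKY51, because the table gives most WRKY genes a locus symbol. Through RefSeq synonyms of the same genes 5 more were added (WRKY9, WRKY24, WRKY62, WRKY71 and WRKY76), and the annotation of the study gave 4 others (WRKY34, WRKY77, LOC_Os01g60600 and LOC_Os03g53050). These 10 genes have 11 of the 57194 probe sets besides controls, and all 10 entered each main test because no filter on low values was used. The 4 genes named by the study's annotation stand in its table of mapped expression traits, so they were listed for their variation in these same RILs. Many other rice WRKY genes have no name in the tables used here and were not analysed.

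WRKY factors are a large plant family that binds the W-box, a short promoter element common in defence, senescence and hormone-response genes. In rice, some members promote and others repress resistance to blast fungus and bacterial blight. WRKY62 binds the cytoplasmic part of the receptor kinase XA21 and acts as a negative regulator of defence, and WRKY76 is a transcriptional repressor. WRKY51 and WRKY71 repress gibberellin-induced alpha-amylase expression in the aleurone of the seed, where WRKY24 acts as a repressor and WRKY77 as an activator in abscisic acid responses. NPR1 is the co-activator of salicylic acid signalling, and JAZ proteins are the repressors of jasmonate signalling.

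As a check of the tissue, RBCS, the small subunit of Rubisco, lay between 14.29 and 14.51 in the RILs, and the floral genes MADS6, MADS13 and MADS58 had RIL medians of 4.12, 3.77 and 3.005, with a median of 5.23 over all values on the arrays. The root silicon transporter Lsi2 (median 3.63) was also low. The floral genes MADS1 (median 8.36) and MADS3 (median 5.72, highest 7.28) and the root silicon transporter Lsi1 (median 9.25) were not at this low end. The median of an array lay between 5.15 and 5.32 for RILs, 5.21 and 5.25 for Minghui 63, and 5.15 and 5.24 for Zhenshan 97. Probe sequences were not used here, so signal shared between related WRKY genes and sequence differences between the parents under a probe are not told apart from expression.

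The members differed widely in how much they varied over the RILs. WRKY76 had the largest spread of the 10, with a lowest value of 4.03, a median of 7.62 and a highest of 10.70 (SD 1.58, n = 210). WRKY62 followed with 3.82, 5.57 and 9.10 (SD 1.04, n = 210), and WRKY77 with 4.14, 5.71 and 7.94 (SD 0.82, n = 210). The SDs of WRKY76, WRKY62 and WRKY77 were larger than those of 99.4%, 98.7% and 97.8% of all probe sets, whose median SD was 0.19. WRKY24 (5.32, 6.65 and 8.46, SD 0.53, n = 210) and WRKY71 (7.21, 8.10 and 10.17, SD 0.43, n = 210) had larger SDs than 94.5% and 91.2% of probe sets. WRKY34 ran from 3.89 to 5.93 (SD 0.31, n = 210) and LOC_Os03g53050 from 9.05 to 10.15 (SD 0.23, n = 210). The smallest spreads belonged to WRKY9 (9.52 to 10.46, SD 0.16), LOC_Os01g60600 (5.77 to 6.64, SD 0.18) and WRKY51 (7.29 to 8.44, SD 0.22). Set against the SD within the parents, pooled over 3 arrays of each, the RIL SD was 2.65 times as large in WRKY34 and 1.78 times as large in WRKY71, and 0.494 times as large in WRKY24, where 1 Zhenshan 97 array stood apart. Over all probe sets the median of this ratio was 1.03, and no test was made of these ratios.

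**Figure D1:**
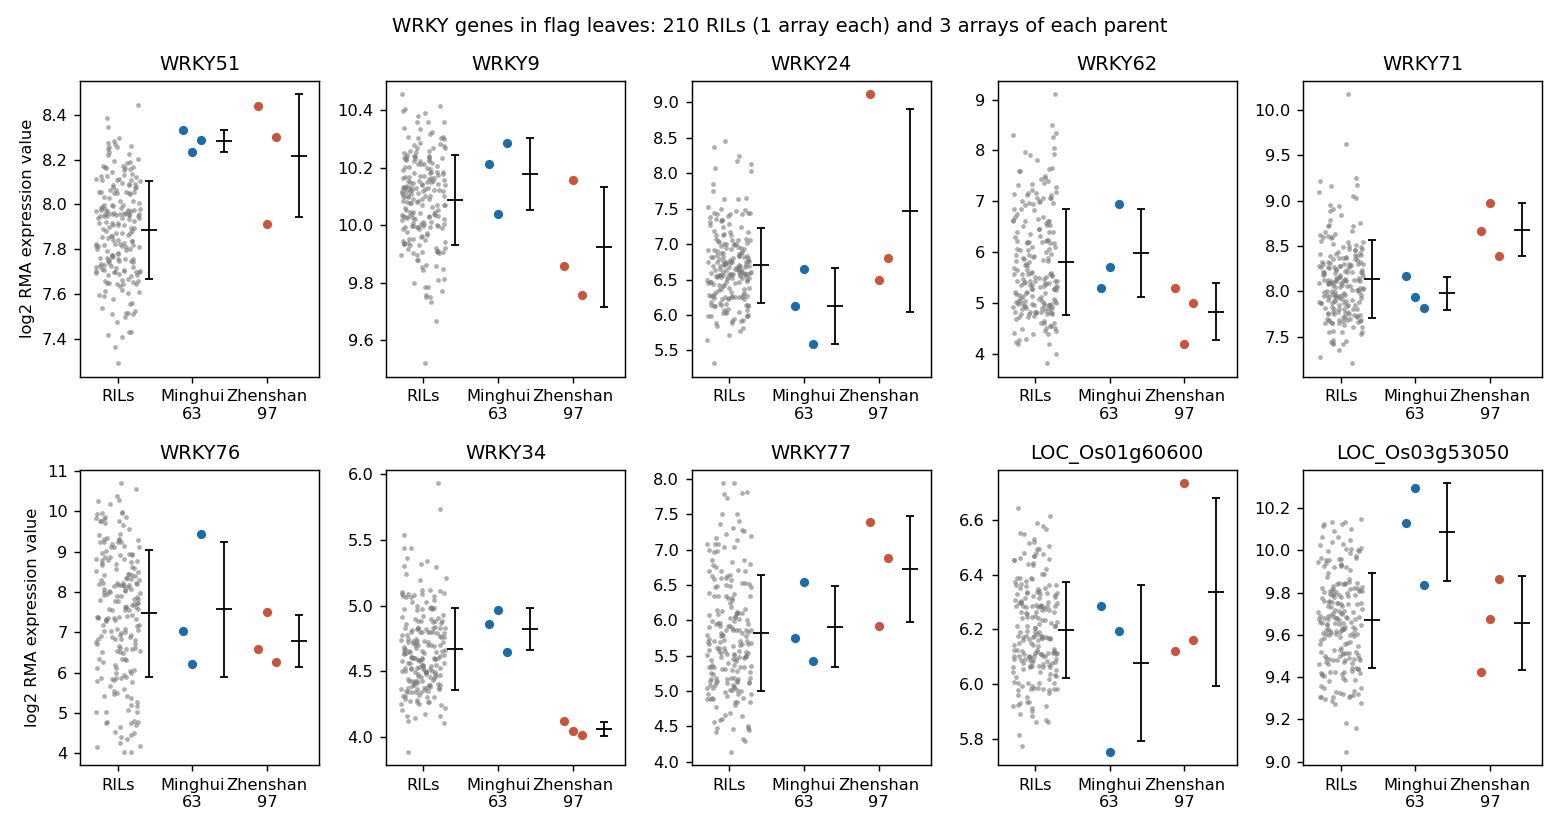
Log2 RMA expression value (vertical axis, own scale in each panel) of 10 WRKY genes in 210 RILs (grey, 1 array each), Minghui 63 (blue, 3 arrays) and Zhenshan 97 (red, 3 arrays). Black bars give the mean and SD of a group. WRKY76 and WRKY62 cover the widest ranges over the RILs, WRKY34 separates the parents, and most RILs lie below the parental means in WRKY51.

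Between the parents, WRKY34 was the 1 member that passed the test. It had 4.86, 4.96 and 4.65 in Minghui 63, against 4.12, 4.05 and 4.02 in Zhenshan 97, and all Minghui 63 arrays lay above all Zhenshan 97 arrays. The difference, Minghui 63 minus Zhenshan 97, was 0.76 (SE 0.13, n = 3 each), with an adjusted p of 0.0124 by limma over all probe sets. WRKY34 was 1 of 10 members to pass, against 5.32% of all probe sets. It is a member because the study listed it for its variation in the RILs of these parents, so this count is a description only. The call was lost without Minghui 63 replicate 1 (adjusted p = 0.0626) and without Zhenshan 97 replicate 3 (adjusted p = 0.0580) by limma, and it was not tested where dim probe sets were left out. Over the RILs, 38 lines lay above the highest parental array of WRKY34 and 1 below the lowest. More lines thus reached past the Minghui 63 arrays than past the Zhenshan 97 arrays. WRKY34 was dim, with a RIL median of 4.63, and all its parental arrays lay below the median of 5.23 over all values. The part of this low level in the 38 against 1 lines was not tested, and such counts of lines were not made over all probe sets.

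WRKY71 and WRKY62 also had parental groups that did not overlap, but did not pass over all probe sets. WRKY71 had 8.17, 7.94 and 7.82 in Minghui 63, against 8.66, 8.98 and 8.40 in Zhenshan 97, a difference of -0.70 (SE 0.20, n = 3 each, limma adjusted p = 0.0978). Its second probe set gave 6.75, 6.57 and 6.45 in Minghui 63, against 7.37, 7.26 and 7.003 in Zhenshan 97, with a difference of -0.62 (limma adjusted p = 0.0899). Both probe sets of WRKY71 were thus lower in all 3 Minghui 63 arrays, and they ran together over the RILs. WRKY62 had 5.30, 5.71 and 6.95 in Minghui 63, against 5.29, 4.21 and 5.005 in Zhenshan 97, a difference of 1.15 (SE 0.43, limma adjusted p = 0.204). Without Minghui 63 replicate 3, the highest array, it was 0.67. For WRKY71, WRKY62 and WRKY34 the exact two-sided permutation p was 0.1, the smallest that 3 arrays against 3 allow. The share of all probe sets whose parental arrays did not overlap was not computed. The lack of overlap in these genes is thus a description only. WRKY24 had 6.13, 6.66 and 5.60 in Minghui 63, against 9.11, 6.50 and 6.80 in Zhenshan 97. Its difference of -1.34 (limma adjusted p = 0.326) came largely from Zhenshan 97 replicate 1, without which it was -0.52. WRKY76 had 7.04, 6.22 and 9.44 in Minghui 63, against 6.59, 7.51 and 6.27 in Zhenshan 97, and its difference of 0.78 was within this spread (limma adjusted p = 0.694). It was 1.45 without Minghui 63 replicate 2 and -0.16 without Minghui 63 replicate 3, where its sign changed. The third Minghui 63 array was the highest of the 6 in both WRKY62 and WRKY76. For WRKY51 the 95% interval of the difference ran from -0.36 to 0.49.

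Against the parents, the RILs were lower in WRKY51. The RILs had a lowest value of 7.29, a median of 7.90 and a highest of 8.44, against 8.33, 8.23 and 8.29 in Minghui 63 and 8.44, 7.91 and 8.30 in Zhenshan 97. Of the 210 lines, 51.9% lay below the lowest parental array and 93.3% below both parental means. The RIL mean minus the average of the parental means was -0.36 (SE 0.09, 95% interval -0.54 to -0.19), with a limma adjusted p of 0.00329, and the adjusted p lay between 0.00102 and 0.0478 with 1 parental array left out. WRKY51 was 1 of 10 members past the threshold, against 7.5% of all probe sets. The second probe set of WRKY71 passed narrowly (-0.35, limma adjusted p = 0.0491) while its first did not (-0.19, limma adjusted p = 0.585). The call of the second was lost with quantile normalization (limma adjusted p = 0.0515) and with any 1 of the 6 parental arrays left out (limma adjusted p between 0.0575 and 0.185). RILs reached beyond the parents in both directions in WRKY76, where 20 lines lay above the highest parental array and 48 below the lowest. In WRKY62, 38 lines lay above and 4 below, and in WRKY77, 9 above and 72 below. Counts of lines outside the parental arrays rest on the range of only 6 arrays. They were not made over all probe sets, so they are a description only.

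A normal mixture split the RILs into 2 clusters for WRKY62 and WRKY77, 2 of 10 members against 4.97% of all probe sets. WRKY77 is a member because the study listed it for its variation in these same RILs, so this count is a description only. In WRKY62 the mixture put 97 lines (46.2%) around 6.50 and the other 53.8% around 5.04, which is below the median of 5.23 over all values. Ashman's D, the distance of the cluster means in units of their spread, was 2.01 where 2.0 was required, and the BIC was lower by 20.8 with 2 clusters. In WRKY77 it put 58 lines (27.6%) around 6.76 and the other 72.4% around 5.43, with a D of 2.34, but the BIC was lower by only 0.179, and WRKY77 had no 2 clusters after quantile normalization. The clusters overlap in both genes, and neither had a D over 2.5. WRKY76 had a D of 2.86 but a higher BIC with 2 clusters and counts as 1 cluster.

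WRKY62 and WRKY76, which are neighbouring genes on chromosome 9 in the RefSeq order, varied together more closely than any other pair of members. Their Pearson's r over the 210 RILs was 0.862 (Spearman's rho 0.903), and the limma adjusted p over 57193 probe sets was 4.14e-60. The permutation p was 1e-05 for r and rho, the smallest that 100000 resamples allow, and r was 0.861 once the 2 lines most distant from the WRKY62 median were left out. Within the 97 lines of the high WRKY62 cluster r was 0.702, and within the low cluster 0.703 (permutation p = 1e-05 in each). It was 0.854 after centring blocks of 10 neighbouring line numbers and 0.852 with 5 principal components removed. The 10 lines highest in WRKY62 (7.82 to 9.10) had 9.24 to 10.70 in WRKY76, and the 10 lines lowest in WRKY62 (3.82 to 4.42) had 4.04 to 6.58, so these ranges did not overlap. Of the 10 highest lines 5 were also among the 10 highest in WRKY76, and of the 10 lowest 4 among its lowest.

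A second group was formed by WRKY71, WRKY24, WRKY51 and WRKY77. WRKY71 and WRKY24 had an r of 0.709 (rho 0.667, limma adjusted p = 7.49e-30), and r was 0.685 without the 2 lines most distant from the WRKY71 median, 0.715 within blocks and 0.589 with the components removed. Through the second probe set of WRKY71, which had an r of 0.857 with the first, r with WRKY24 was 0.606. WRKY24 and WRKY77 had an r of 0.511 (rho 0.499, limma adjusted p = 2.85e-13), 0.504 without 2 lines, 0.509 within blocks and 0.373 with the components removed. Within the WRKY77 clusters it was 0.168 in the 58 high lines (permutation p = 0.207) and 0.325 in the low lines (permutation p = 5e-05). WRKY71 and WRKY51 had an r of 0.447 (rho 0.466, limma adjusted p = 3.05e-09), 0.453 without 2 lines, 0.483 within blocks and 0.296 with the components removed. WRKY51 and WRKY24 had an r of 0.421 (rho 0.421, limma adjusted p = 8.09e-09), 0.394 without 2 lines, 0.452 within blocks and 0.218 with the components removed. The pooled permutation p of these 4 pairs was 1e-05 for r and rho. The correlations of this group thus became smaller when the main axes of variation over all genes were taken out, whereas that of WRKY62 and WRKY76 hardly moved.

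Between the groups r was low. The r of WRKY62 with WRKY71, WRKY24, WRKY51 and WRKY77 ran from 0.0161 to 0.123, and that of WRKY76 with them from 0.0488 to 0.146. Of all 45 pairs, 3 had an r of at least 0.5 and none of -0.5 or less. Over all pairs of probe sets with 1 symbol, 1.66% were past 0.5 in size, and the median size of r was 0.123 over the WRKY pairs and 0.111 over all pairs. The 3 lowest pairs all held LOC_Os01g60600, with LOC_Os03g53050 (r -0.245, rho -0.232, permutation p = 0.00042 and 0.00067), WRKY77 (r -0.240, rho -0.252, permutation p = 0.00042 and 0.00024) and WRKY51 (r -0.235, rho -0.254, permutation p = 0.0006 and 0.0002). Their limma adjusted p was 0.00166, 0.00188 and 0.00365, and r was -0.271, -0.258 and -0.234 without 2 lines. Within blocks it was -0.353, -0.263 and -0.189. With the components removed it was 0.0218, -0.126 and -0.0372, so the first of them changed its sign. In the WRKY77 clusters LOC_Os01g60600 had an r of -0.183 in the high lines (permutation p = 0.168) and -0.132 in the low lines (permutation p = 0.103). For these anchors, 43.5% of all probe sets passed with LOC_Os01g60600 and 28.2% with WRKY24.

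**Figure D2:**
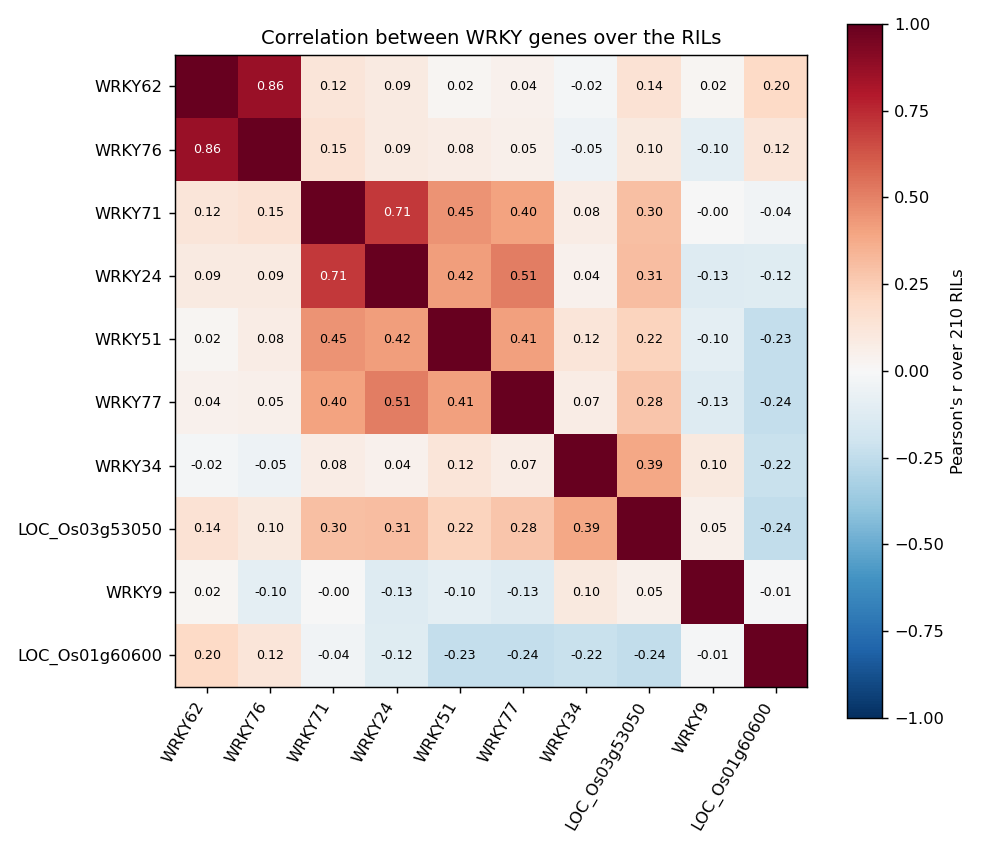
Pearson's r over 210 RILs for each pair of the 10 WRKY genes, with colour from -1 (blue) to 1 (red) and the value in each cell. WRKY62 and WRKY76 (0.86) stand apart from WRKY71, WRKY24, WRKY51 and WRKY77, whose pairs lie between 0.40 and 0.71.

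Some members varied with a technical measure of the arrays. The difference between 3' and 5' probe sets of 7 pairs of rice control sets lay between 0.29 and 0.89 over the RILs. It correlated with WRKY9 (r -0.263, rho -0.258, permutation p = 0.00011 and 0.0002), WRKY34 (r 0.241, rho 0.233, permutation p = 0.00038 and 0.00067) and LOC_Os01g60600 (r -0.225, rho -0.229, permutation p = 0.00104 and 0.00076). In the other 7 members r lay between -0.0979 and 0.0921. The part of this difference in the values of these 3 genes was not tested. The arrays also carry 10 control probe sets for genes of the blast fungus, and 100 correlations of these with the members were computed. Of the 10 controls, 4 passed with LOC_Os03g53050, 4 with WRKY34, 3 with LOC_Os01g60600, 2 with WRKY51 and 1 with WRKY71. The permutation p was adjusted by Benjamini-Hochberg over the 100. By limma over 57193 probe sets, 32040 passed with LOC_Os03g53050, 23300 with WRKY34, 24907 with LOC_Os01g60600, 20231 with WRKY51 and 14657 with WRKY71. The tests and adjustments differ, so these counts are set side by side as a description only. The control of largest r in size had an r of -0.396 with LOC_Os03g53050 (rho -0.382), -0.309 with WRKY34 (rho -0.259), 0.289 with LOC_Os01g60600 (rho 0.290), -0.243 with WRKY51 (rho -0.230) and -0.225 with WRKY71 (rho -0.214). The adjusted permutation p of these r values was 0.001, 0.001, 0.0015, 0.00456 and 0.00873, and r was -0.373, -0.247, 0.309, -0.229 and -0.189 without the 2 lines most distant from the median of the member. In the other 5 members no control passed, and the largest r in size lay between -0.171 and 0.143. The part of these control signals in the values of the members was not tested. Blocks of 10 neighbouring line numbers held 23.8% of the variance of LOC_Os03g53050 and 21.2% of that of WRKY51, but 7.78% of that of WRKY77 and 7.97% of that of WRKY24, against a median of 14.9% over all probe sets.

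For WRKY62, the named genes most like it over the RILs were RH2 (r 0.889, rho 0.879), WRKY76, NPR3 (r 0.823, rho 0.789), OsNrx1-1 (r 0.709, rho 0.696) and the potassium transporter gene HAK17 (r 0.673, rho 0.594). NPR3 is a homologue of NPR1 and is named NH3 in RefSeq, and its other probe set, the one of higher mean, had an r of 0.776 (rho 0.772, limma adjusted p = 2.2e-40). Without the 2 farthest lines r was 0.880 for RH2, 0.808 for NPR3, 0.699 for OsNrx1-1 and 0.642 for HAK17, and with the components removed it was 0.883, 0.816, 0.727 and 0.636. Within the high and the low WRKY62 cluster r was 0.767 and 0.567 for RH2, 0.705 and 0.396 for NPR3, 0.525 and 0.255 for OsNrx1-1, and 0.5996 and 0.0823 for HAK17. The permutation p was 0.386 for HAK17 in the low cluster, 0.00665 for OsNrx1-1 there, 2e-05 for NPR3 there and 1e-05 for the others, and the difference between clusters was not tested. WRKY62 was dim in the low cluster, and the part of this low level in these r values was not tested. The 10 lines highest in WRKY62 had 8.40 to 9.76 in RH2, whose RIL median was 7.03, and 5.84 to 7.50 in NPR3, whose median was 5.04. Of these 10 lines, 6 were among the 10 highest in RH2 and 7 among the 10 highest in NPR3. Of the 10 lines lowest in WRKY62, 1 was among the 10 lowest in RH2 and 3 among the 10 lowest in NPR3.

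For WRKY71, the named genes most like it were MPK3 (r 0.773, rho 0.710), a MAP kinase of defence signalling that RefSeq names BIMK1, TIFY11D (JAZ12, r 0.749, rho 0.715), the calcium-dependent protein kinase gene CPK4 (r 0.710, rho 0.643), WRKY24 and TIFY11C (JAZ11, r 0.677, rho 0.678). Without the 2 farthest lines r was 0.736, 0.732, 0.677 and 0.689 for MPK3, TIFY11D, CPK4 and TIFY11C, and with the components removed 0.704, 0.696, 0.610 and 0.563. Through the second probe set of WRKY71 r was 0.650 with MPK3 and 0.625 with TIFY11D. For WRKY51, the genes most like it were the phosphate transporter gene OsPht1;1 (r 0.595, rho 0.578), NPR1 (r 0.589, rho 0.578), HCT2 (r 0.557, rho 0.560) and the protein phosphatase genes OsPP2C32 (r 0.555, rho 0.530) and BIPP2C2 (r 0.546, rho 0.517). Without the 2 farthest lines these ran from 0.530 to 0.585, within blocks from 0.539 to 0.620, and with the components removed from 0.265 to 0.419. The permutation p was 1e-05 for r and rho of all named genes most like the 3 anchors.

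**Figure D3:**
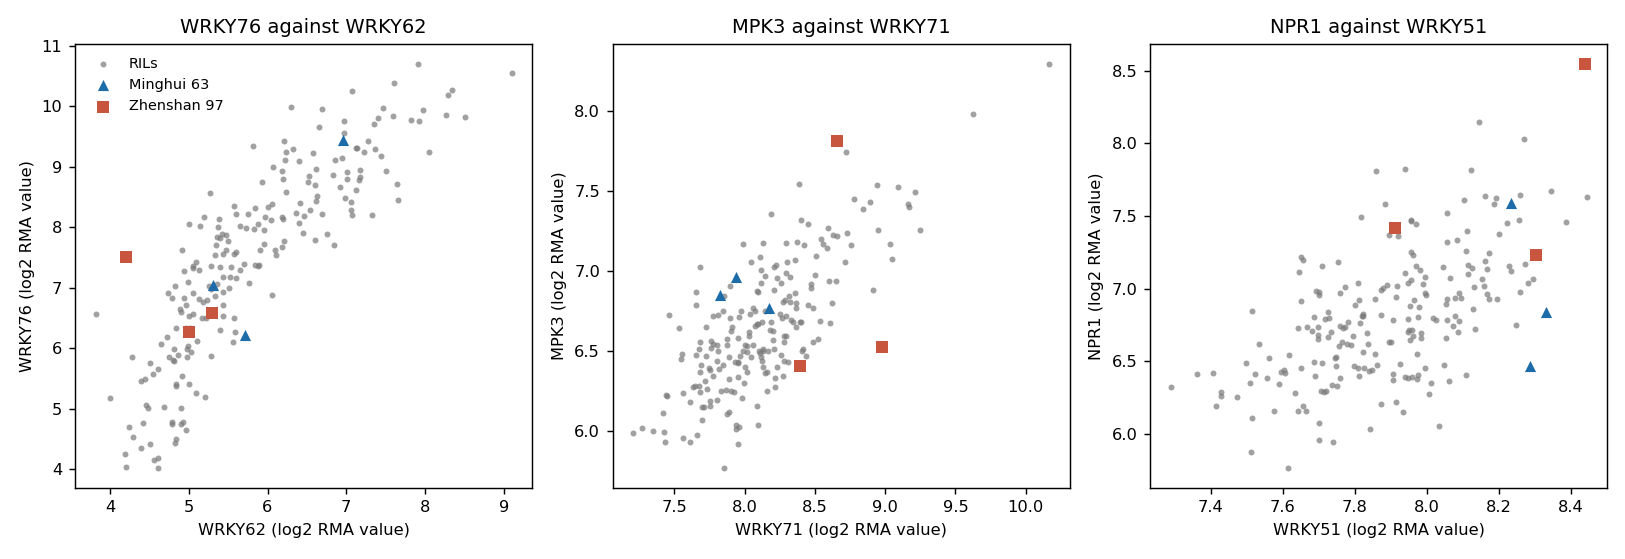
Log2 RMA values of WRKY76 against WRKY62, MPK3 against WRKY71 and NPR1 against WRKY51, for 210 RILs (grey circles), Minghui 63 (blue triangles) and Zhenshan 97 (red squares). Pearson's r over the RILs is 0.862, 0.773 and 0.589, and the points form a continuous band in each panel.

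Defence and senescence genes were then read against WRKY62, WRKY51 and WRKY71, in the 40 genes of 4 lists that matched by name. Among the entries without a match were PR1a, PR1b, PR5, PAD4, EDS1 and ICS1, which were not read. With WRKY62, 4 of 40 passed by limma, all with a positive r, against 1.23% of all probe sets, and 2 of 40 had an r of 0.3 or more in size, against 0.385%. They were NPR3, NPR2 (r 0.248, rho 0.263, limma adjusted p = 0.0294), the MAP kinase MPK6 (r 0.243, rho 0.233, limma adjusted p = 0.0360) and the MAP kinase kinase MKK6 (r 0.341, rho 0.316, limma adjusted p = 0.000203). Of 15 genes of diterpenoid phytoalexin synthesis, the antimicrobial compounds of rice, none passed by limma, and 5 had an unadjusted p under 0.05, 2 with a positive and 3 with a negative r. Of 9 senescence and abscisic acid genes none passed by limma and 1 had an unadjusted p under 0.05. Over all probe sets, 7367 of 57193 had an unadjusted limma p under 0.05 with WRKY62. The median r was 0.0621 over the 7 salicylic acid and pathogenesis-related genes and -0.0315 over the phytoalexin genes, against -0.0171 over all probe sets.

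With WRKY51, 25 of 40 passed by limma, 22 with a positive and 3 with a negative r, against 35.4% of all probe sets. An r of 0.3 or more in size was seen in 10 of 40, against 8.47%. Of the 7 salicylic acid and pathogenesis-related genes 5 passed, all positive, with a median r of 0.395 over the list against -0.0567 over all probe sets. Among them were NPR1, the pathogenesis-related gene PR10a (r 0.467, rho 0.482, limma adjusted p = 8.31e-11) and the chitinase gene Cht2 (r 0.419, rho 0.441, limma adjusted p = 1.02e-08). The list entry Cht8 matched the same gene as Cht2. The chitinase gene Cht1, which also passed, was dim, with a RIL median of 3.03 against 5.23 over all values. Of the 15 phytoalexin genes 7 passed with a positive r. Among them were the synthase gene KSL10 (r 0.417, rho 0.412) and the cytochrome P450 genes CYP71Z6 (r 0.4205, rho 0.393) and CYP71Z7 (r 0.404, rho 0.415). KSL10 was dim, with a RIL median of 4.44 against 5.23 over all values. KSL7, also a diterpene synthase gene, passed with a negative r (-0.232, rho -0.246). Of 9 MAP kinase cascade and receptor genes 6 passed with a positive r, among them MPK3 (r 0.506, rho 0.521), and the receptor gene LYP4 with a negative one (-0.297, rho -0.273). This list also holds the NADPH oxidase gene RbohB, which passed (r 0.290, rho 0.335), and the scaffold protein gene RACK1A, which did not. Of 9 senescence and abscisic acid genes 4 passed with a positive r, and NYC1, the chlorophyll b reductase, with a negative one (-0.369, rho -0.358). With the components removed 11 of 40 passed, against 5001 of 57193 probe sets. Of the 7 salicylic acid and pathogenesis-related genes 2 then passed. In that setting r was 0.385 for NPR1, 0.202 for PR10a, 0.318 for CYP71Z6, -0.0946 for NYC1 and 0.0207 for LYP4, which thus changed its sign.

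With WRKY71, 22 of 40 passed by limma, 20 with a positive and 2 with a negative r, against 25.6% of all probe sets, and 5 of 40 had an r of 0.3 or more in size, against 3.82%. All 7 matched salicylic acid and pathogenesis-related genes passed with a positive r (median 0.255, against -0.0474 over all probe sets). Among them were Cht2 (r 0.524, rho 0.556), NPR1 (r 0.415, rho 0.433) and PR10a (r 0.355, rho 0.417). The chitinase gene Cht1, also among them, was dim, with a RIL median of 3.03 against 5.23 over all values. By Spearman correlation 6 of the 7 passed. Of 9 MAP kinase cascade and receptor genes 4 passed, all positive, among them the scaffold protein gene RACK1A (r 0.220, rho 0.246). Of 9 senescence and abscisic acid genes 5 passed with a positive r, among them SGR (r 0.275, rho 0.239), which starts chlorophyll breakdown, and NYC1 passed with a negative one (-0.207, rho -0.251). Of 15 phytoalexin genes 4 passed with a positive and 1 with a negative r. With the components removed 4 of 40 passed, against 1470 of 57193 probe sets. Of the 7 salicylic acid and pathogenesis-related genes 1 then passed, with a median r of 0.0895 over the list. In that setting r was 0.704 for MPK3, 0.303 for Cht2 and 0.423 for SGR, but 0.138 for NPR1 and 0.0895 for PR10a.

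Lists of JAZ repressor genes and of gibberellin and alpha-amylase genes were added after the genes most like WRKY71 had been seen, so their counts are a description. Of 13 measured JAZ genes, 7 passed with WRKY71, all positive, against 25.6% of all probe sets, with a median r of 0.335, and all 7 had an r of at least 0.3. The highest were TIFY11D, TIFY11C, TIFY11B (r 0.589, rho 0.505) and TIFY11E (r 0.524, rho 0.4195), and without the 2 farthest lines the last pair had 0.547 and 0.460. With the components removed 8 of 13 passed, against 1470 of 57193 probe sets. With WRKY62, 6 of 13 passed, all positive, against 1.23% of all probe sets, the highest being TIFY10B (r 0.396, rho 0.363), TIFY10C (r 0.369, rho 0.322) and TIFY11B (r 0.323, rho 0.260). Only 4 of 13 passed with WRKY62 by Spearman correlation, with the components removed, and with blocks of line numbers removed. With WRKY51, 3 of 13 passed in the main fit, a share not above the 35.4% of all probe sets. The highest were TIFY11C (r 0.411, rho 0.415) and TIFY11D (r 0.324, rho 0.323). Of 9 gibberellin and alpha-amylase genes, 1 passed with WRKY71, against 25.6% of all probe sets, the DELLA repressor gene SLR1 (r 0.185, rho 0.183, limma adjusted p = 0.0340). With WRKY51, 3 of 9 passed, near the 35.4% of all probe sets. The amylase gene AMY2A passed with a positive r (0.297, rho 0.270) and AMY3A (-0.270, rho -0.261) and AMY3E with a negative one. With WRKY62 AMY3D alone passed, 1 of 9 against 1.23% of all probe sets. These amylase genes were dim, with RIL medians of 3.37 (AMY2A), 4.02 (AMY3A), 3.31 (AMY3E) and 4.33 (AMY3D), against 5.23 over all values.

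**Figure D4:**
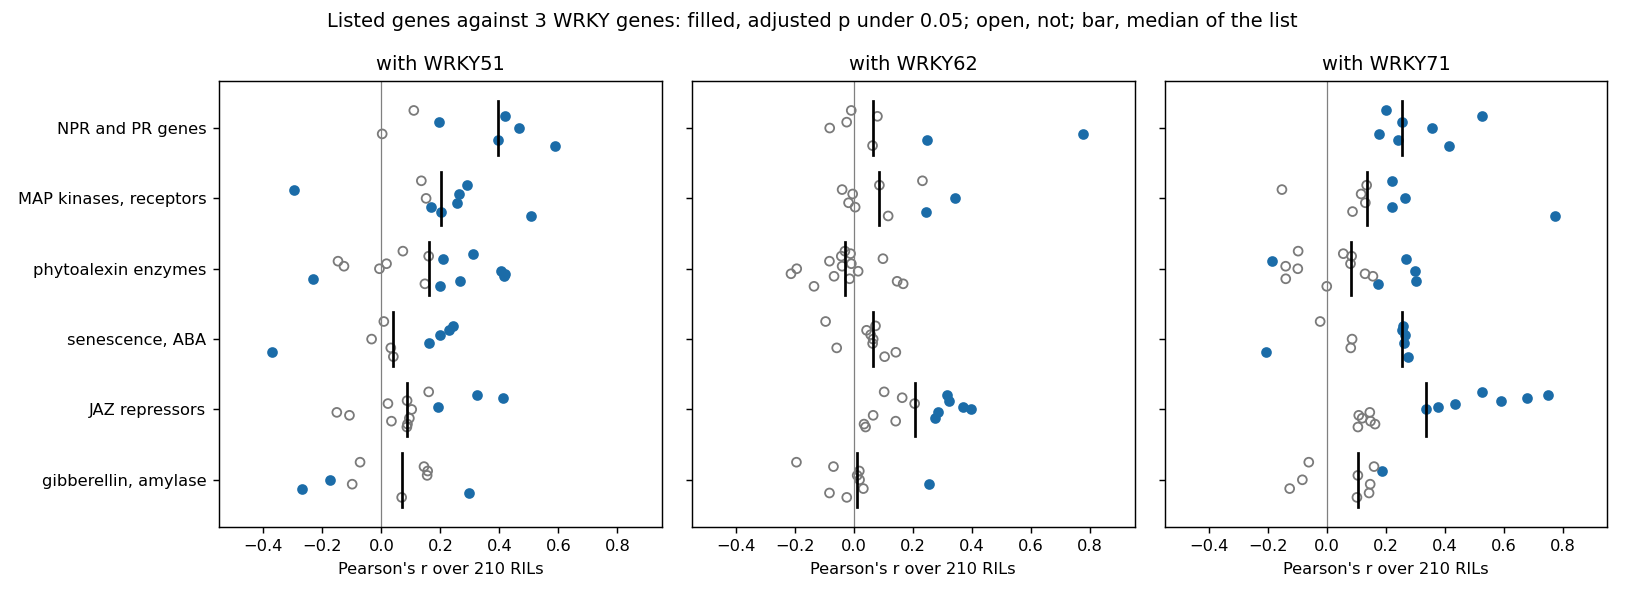
Pearson's r over 210 RILs (horizontal axis) of the genes of 6 lists with WRKY51, WRKY62 and WRKY71. Filled points had a limma adjusted p under 0.05 over all probe sets, open points did not, and the black bar is the median of a list. NPR3 lies far to the right with WRKY62, and MPK3 and 4 JAZ genes lie beyond 0.5 with WRKY71.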

How the data were processed

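Per the labels, the authors summarised each probe set of the deposited table on a log2 scale with RMA and affy (versions not given in the sources). All 216 arrays were used, with no further normalization, and the number of parental arrays limits the precision. Groups follow the variety given in the labels. Control sets (123 and 64) were left out. Of 57194 probe sets 22436 carried 1 symbol, 95 several, and 34663 were not named. Symbols were updated through RefSeq (ASM3414082v1), and a list gene was read from its probe set of highest mean, but a gene most like an anchor (NPR3 among them) from its probe set of highest r. Groups and anchors were fitted with limma 3.58.1 in R 4.3.3 (lmFit, eBayes with trend) with Benjamini-Hochberg adjustment over all probe sets at 0.05. An anchor fit regresses every probe set on 1 WRKY gene over the RILs. Parental arrays also had an exact permutation test. Correlations were computed in Python 3.11.15 (numpy 2.4.6) with permutation p-values. The mixture needed a lower BIC, an Ashman's D over 2.0 and 6 lines in each cluster. Of the 3 planned anchors only WRKY62 is named in the tables, so WRKY51 and WRKY71 were added after seeing the data. Named were members and pairs past these limits or at the extremes of spread and r, a fixed list of WRKY names, the 5 genes most like each anchor and list genes past 0.5. NPR2, MPK6, MKK6, RbohB, RACK1A, PR10a, Cht1, Cht2 for WRKY51, SGR, the phytoalexin genes, NYC1, LYP4, SLR1, the amylase genes and, for WRKY71, NPR1 were named after their values were seen. Of 116 list entries 40 were matched to a gene by name, and none of the VQ proteins matched. An entry without a match by name can still have a probe set on the array. The members and lists were chosen with earlier results of these data known. The routines were tested on simulated data. The authors' eQTL results were not used as values.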

Additional observations from a re-analysis of the deposited data

How the results depend on the processing

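Of 7 counts, those of members that differed between RILs and parents, of WRKY pairs and of listed genes with WRKY62 kept within 1.5 times of their value under every alternative run, and the other 4 did not. The member that differed between the parents, WRKY34, was not tested where dim probe sets were left out, which gave 0 of 9 members past the threshold. Leaving out 1 parental array each gave 0 to 1, with the adjusted p of WRKY34 by limma between 0.0188 and 0.0626. For the RILs against the parents the count stayed at 1 in all these fits. The members with 2 clusters of lines fell to 0 with an Ashman's D over 2.5, and to 1 with quantile normalization, where WRKY77 was lost. Listed genes past the threshold fell to 11 with WRKY51 and to 4 with WRKY71 when 5 principal components were removed, and over all probe sets the calls with WRKY51 were then 5001 in place of 20231 and those with WRKY71 1470 in place of 14657. The cause was not tested. The correlation of LOC_Os01g60600 and LOC_Os03g53050 changed its sign to 0.0218 in that setting. Replicate numbers of the parents did not pair: deviations of same-numbered arrays correlated by -0.202, -0.260 and -0.0707. With the replicate block 2312 probe sets were called between the parents in place of 3043, and 1 member in place of 1 (WRKY34, limma adjusted p = 0.0427). With 3 arrays a parent, even differences larger in size than the SD within the parents did not pass in WRKY62 and WRKY24. They were 1.15 against an SD of 0.73 in WRKY62 and -1.34 against 1.08 in WRKY24. In WRKY76 the difference of 0.78 was smaller than the SD of 1.27. Counts of single lists were small and moved too. Larger moves came with 5 principal components removed, where calls over all probe sets also fell. Salicylic acid and pathogenesis-related genes passing with WRKY71 were then 1 in place of 7, and with WRKY51 2 in place of 5. Phytoalexin genes passing with a positive r with WRKY71 were 0 in place of 4. JAZ genes went the other way, with 8 in place of 7 for WRKY71 and 4 in place of 3 for WRKY51. With blocks of line numbers removed, JAZ genes passing with WRKY51 were 5 in place of 3, gibberellin and alpha-amylase genes with WRKY71 0 in place of 1, and MAP kinase and receptor genes with WRKY62 1 in place of 2. With Spearman correlation, MAP kinase and receptor genes with WRKY62 were 1 in place of 2 and gibberellin and alpha-amylase genes with WRKY62 0 in place of 1.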
